A study of Rattus norvegicus with 33 samples.

Results

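The basal layer of the mammary epithelium was followed through the rat gland's life with a set of 10 genes: the basal keratins Krt14, Krt5 and Krt17, the epithelial transcription factor gene Tp63, the contractile genes Acta2, Myh11, Cnn1, Mylk and Tagln, and the oxytocin receptor gene Oxtr. Members were the listed symbols found in the array's annotation, taken from probe sets with a single gene symbol. Of the 10, 7 were measured, each by 1 probe set (Krt14, Krt17, Tp63, Oxtr, Myh11, Mylk and Tagln), out of 18166 genes in all. Krt5, Acta2 and Cnn1 were not analysed here. All 7 measured members were among the 10986 genes tested: each exceeded a log2 value of 7.645, the median of the single-symbol probe sets, in 19 (Tp63) to 33 (Myh11, Mylk, Tagln) of the 33 arrays.

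The arrays held total RNA from whole glands of female Sprague-Dawley rats, an outbred strain. All animals were untreated apart from olive oil by gavage, as vehicle controls of a chemical exposure study, and the 5th caudal glands of both sides were used. Ages are postnatal days. There were 10 pre-pubertal arrays (day 21), 5 peri-pubertal (day 42), 5 pubertal (day 63), 3 from the end of lactation (day 146, lactation day 28), 5 parous and 5 nulliparous (both day 181). Animals of a group were killed on the same day at random points of the estrous cycle, so stage, date and cycle are not separated. The series record counts animals in this way, while the sample notes state 5 animals for every stage. If the 10 day 21 arrays came from fewer animals, the p-values for that stage are too small.

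Myoepithelial cells lie between the luminal cells and the basement membrane. They carry basal keratins, depend on p63 and are built like smooth muscle cells: oxytocin released at suckling acts on their receptor, calcium rises, myosin light chain kinase acts on myosin, and the cells squeeze milk out of the alveoli. Basal keratins and p63 mark epithelium, including skin. The contractile genes are also made by the smooth muscle of vessels, so a whole-gland value of a contractile gene mixes both sources, and fewer cells of a type cannot be told apart from less RNA per cell.

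Each gene was fitted over all 33 arrays with terms for the 6 stages and the 3 labelled batches (limma, Benjamini-Hochberg adjustment over all 10986 genes, a gene called at an adjusted p under 0.05). Batch 1 lacked lactation but covered the other 5 stages. Batch 2 had all 3 lactation arrays plus 4 pre-pubertal, 2 peri-pubertal and 2 pubertal arrays. Batch 3 was made up of 2 parous and 2 nulliparous arrays extracted with another kit. Values are log2 units of the authors' normalized signal, differences are given with their SE, and "rose" and "fell" are used of called genes. Over the 6 stages, 6 of the 7 members differed by the F test, against 65.9% of all genes tested. Oxtr (adjusted p = 5.78e-08), Krt14 (2.52e-07), Tp63 (3.18e-07) and Krt17 (7.76e-06) ranked ahead of Mylk (0.000424) and Tagln (0.0273), and Myh11 did not pass (0.0685).

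**Figure D1:**
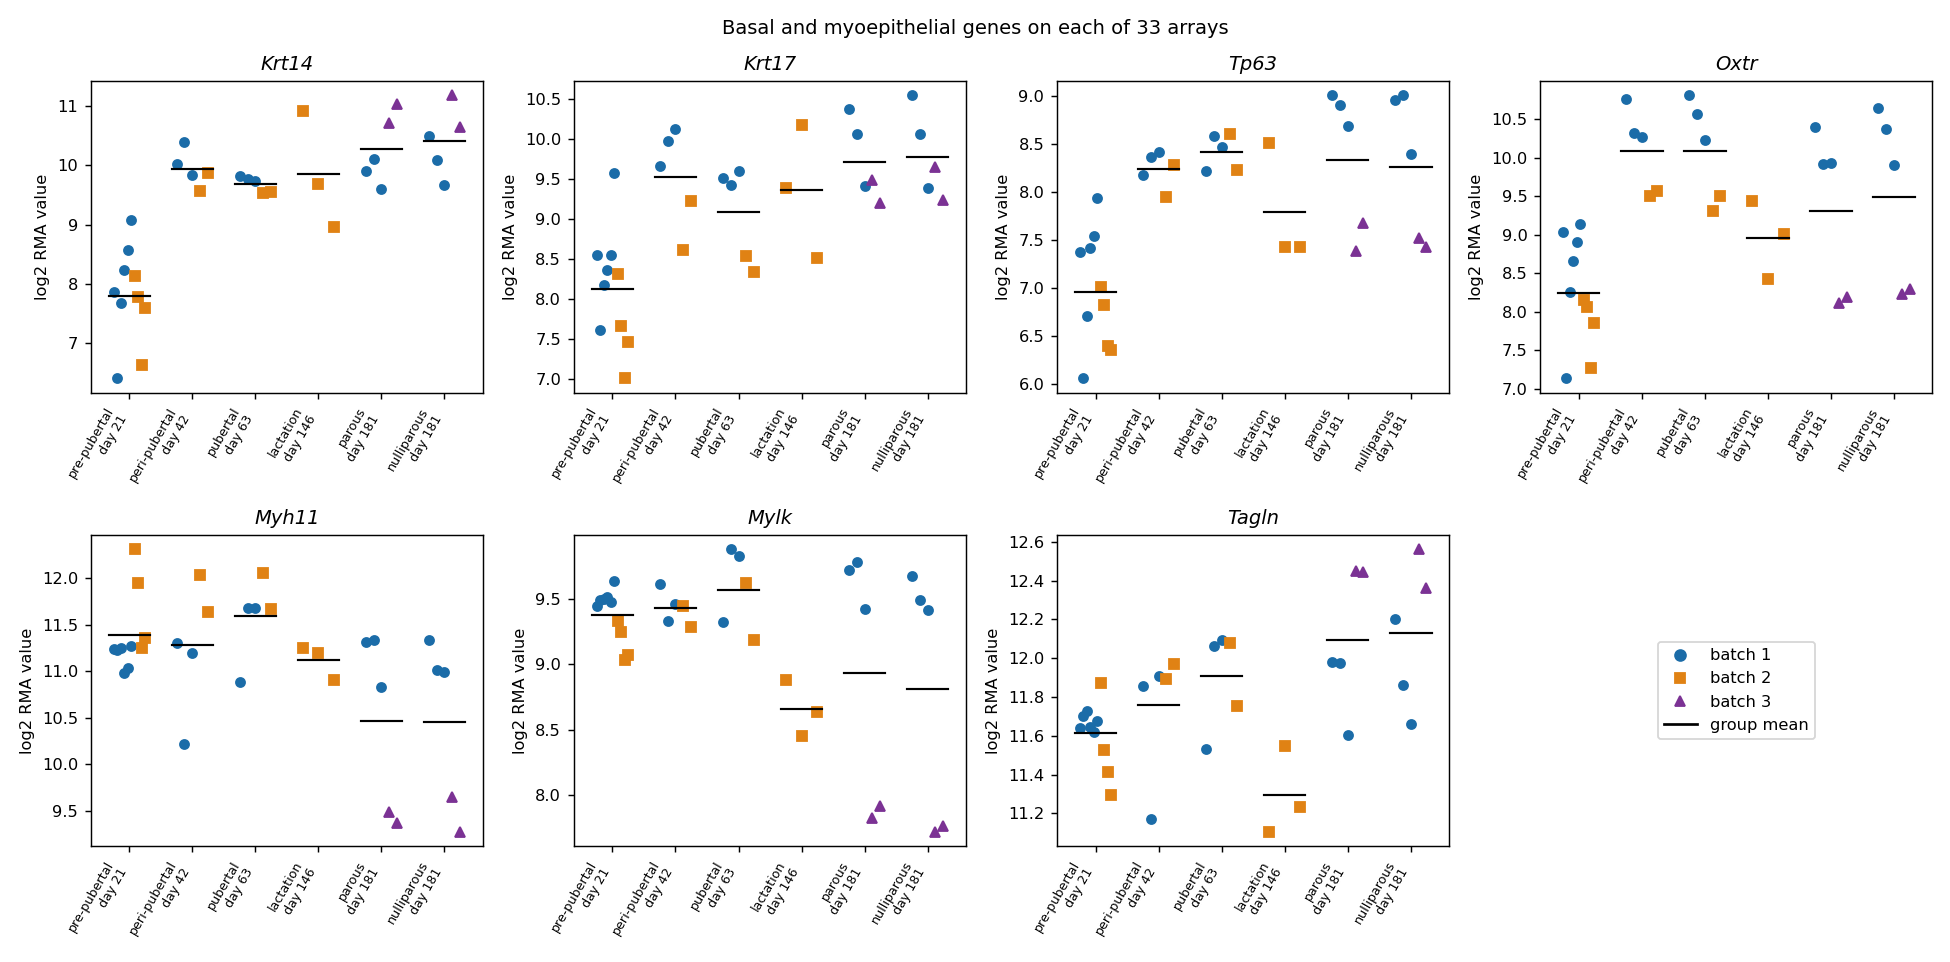
The log2 value of each measured gene on each of the 33 arrays, by stage on the horizontal axis, with colour and shape for the labelled batch and a line for the group mean. The day 21 arrays of Krt14, Krt17, Tp63 and Oxtr sit low, the lactation arrays of Mylk sit below every pubertal array, and the batch 3 arrays of Myh11, Mylk, Tp63 and Oxtr sit apart from batch 1 arrays of the same stage.

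The keratins, Tp63 and Oxtr rose between day 21 and day 42, while Myh11, Mylk and Tagln were not called. Krt14, the keratin of basal cells, was at 10.03, 10.39, 9.83, 9.56 and 9.86 in peri-pubertal glands, against a lowest value of 6.41, a median of 7.82 and a highest value of 9.07 in pre-pubertal glands. Every peri-pubertal array lay above every pre-pubertal one, and Krt14 rose by 2.14 ± 0.30 log2 units, a 4.41-fold difference (adjusted p = 4.13e-06). Krt17, a keratin induced in basal and stressed epithelium, was at 9.66, 9.97, 10.12, 8.61 and 9.23 in peri-pubertal glands, against 7.004, 8.24 and 9.57 as the lowest, median and highest in pre-pubertal glands. The groups overlapped, with 1 pre-pubertal array above 2 peri-pubertal arrays, and the rise was 1.39 ± 0.25 (adjusted p = 0.000121). Tp63, the master regulator of stratified and basal epithelium, was at 8.18, 8.36, 8.42, 7.95 and 8.28 in peri-pubertal glands, against 6.06, 6.92 and 7.94 in pre-pubertal glands. These groups did not overlap, although the nearest arrays, at 7.95 and 7.94, almost met, and Tp63 rose by 1.27 ± 0.21 (adjusted p = 4.46e-05).

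Oxtr, the receptor that couples oxytocin to contraction, was at 10.77, 10.32, 10.27, 9.51 and 9.57 in peri-pubertal glands, against a lowest value of 7.13, a median of 8.21 and a highest value of 9.13 in pre-pubertal glands. The groups did not overlap, and Oxtr rose by 1.84 ± 0.23, or 3.58-fold (adjusted p = 7.33e-07), in glands of virgin rats. In all, 4 of the 7 members rose, where 17.1% of all genes tested did, and 3 of the 7 had non-overlapping higher arrays, where 3.22% did. Each rise was also seen inside the batches that held both stages: in batch 1 the differences were 2.11 for Krt14, 1.45 for Krt17, 1.14 for Tp63 and 1.93 for Oxtr, all called. In batch 2 they were 2.18, 1.31, 1.47 and 1.70 in the same order, and only Krt17 missed the threshold there (adjusted p = 0.0966).

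The promoter windows of Tp63 and Oxtr are printed because these genes moved together at day 42, and that of Mylk because it had the lowest adjusted p of the members in lactation. They run from 250 bases before to 50 bases after the gene start in RefSeq (build GRCr8), and the start listed there need not be the one used in mammary basal cells. Windows were at hand for 3 of the 7 measured members.
Tp63 (chr11:88554128-88554427, minus strand): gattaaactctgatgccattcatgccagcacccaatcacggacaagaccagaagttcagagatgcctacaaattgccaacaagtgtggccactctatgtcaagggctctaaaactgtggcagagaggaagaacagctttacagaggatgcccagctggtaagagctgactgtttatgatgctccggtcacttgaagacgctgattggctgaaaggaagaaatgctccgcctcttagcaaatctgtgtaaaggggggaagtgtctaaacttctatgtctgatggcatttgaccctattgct
Oxtr (chr4:147170450-147170749, minus strand): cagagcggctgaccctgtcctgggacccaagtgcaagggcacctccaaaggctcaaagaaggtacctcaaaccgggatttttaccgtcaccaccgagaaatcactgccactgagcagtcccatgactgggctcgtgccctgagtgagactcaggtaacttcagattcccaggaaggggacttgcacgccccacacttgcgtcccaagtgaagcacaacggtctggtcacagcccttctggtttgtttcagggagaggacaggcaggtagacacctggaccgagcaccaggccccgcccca
Mylk (chr11:79498525-79498824, minus strand): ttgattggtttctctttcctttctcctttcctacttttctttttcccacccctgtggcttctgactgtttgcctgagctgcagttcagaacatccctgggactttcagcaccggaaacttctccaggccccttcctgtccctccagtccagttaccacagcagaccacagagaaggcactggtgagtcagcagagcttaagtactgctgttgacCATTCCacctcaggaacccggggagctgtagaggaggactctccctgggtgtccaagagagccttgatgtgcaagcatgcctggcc
Capitals mark motif matches on either strand. The motifs searched were the CArG box bound by serum response factor, CATTCC bound by TEAD factors, the oestrogen response element (GGTCA and TGACC set 3 bases apart) and the AP-2 site GCCNNNGGC, with no overlapping matches. The only match in the 3 windows was CATTCC in Mylk, at bases 215 to 220 of the window. Of 33469 rat promoter windows of the same length, 14.189% held CATTCC, 15.124% the AP-2 site, 1.637% a CArG box and 0.027% the oestrogen response element.

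None of the contractile members was called with the keratins at day 42. Myh11, the smooth muscle myosin heavy chain, was at 11.30, 10.22, 11.20, 12.03 and 11.64 in peri-pubertal glands, against 10.98, 11.25 and 12.31 as the lowest, median and highest in pre-pubertal glands. The difference was -0.11 ± 0.17 (adjusted p = 0.671), with a 95% interval from -0.46 to 0.24. Mylk, the kinase that switches on smooth muscle myosin, averaged 9.43 ± 0.13 in peri-pubertal glands and 9.37 ± 0.20 in pre-pubertal glands (SD, n = 5 and n = 10). Its difference was 0.05 ± 0.09 (adjusted p = 0.691, interval -0.13 to 0.24). Tagln, the actin-binding protein transgelin, averaged 11.76 ± 0.33 and 11.61 ± 0.17 in the same groups (SD), a difference of 0.15 ± 0.12 (adjusted p = 0.380, interval -0.10 to 0.39). Without peri-pubertal array 2, the lowest of its group in both Tagln and Myh11, Tagln was called (0.30, limma adjusted p = 0.0401). With any 1 array left out, Myh11 stayed uncalled, at -0.22 to 0.10.

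The gap between the genes called at day 42 and those not called was then sized in pairs. The pairs follow those calls on the same arrays and share genes, so a larger change in every pair was largely set beforehand. The p-values below are therefore no independent support. For each of the 12 pairs of an epithelial member (Krt14, Krt17, Tp63 or Oxtr) and a contractile member, the day 42 minus day 21 change of the first was set against that of the second in an exact permutation test of the stage labels within batches (two-sided, 1260 arrangements). The epithelial member's change was larger in every pair, by 1.13 (Tp63 against Tagln) to 2.25 (Krt14 against Myh11) log2 units. The p was 0.000794, the smallest the design allows, in 11 pairs and 0.00159 for Krt17 against Tagln, or 0.000866 and 0.00159 after adjustment over the 12. The measured levels of different genes were not compared, since each probe set has its own response.

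**Figure D2:**
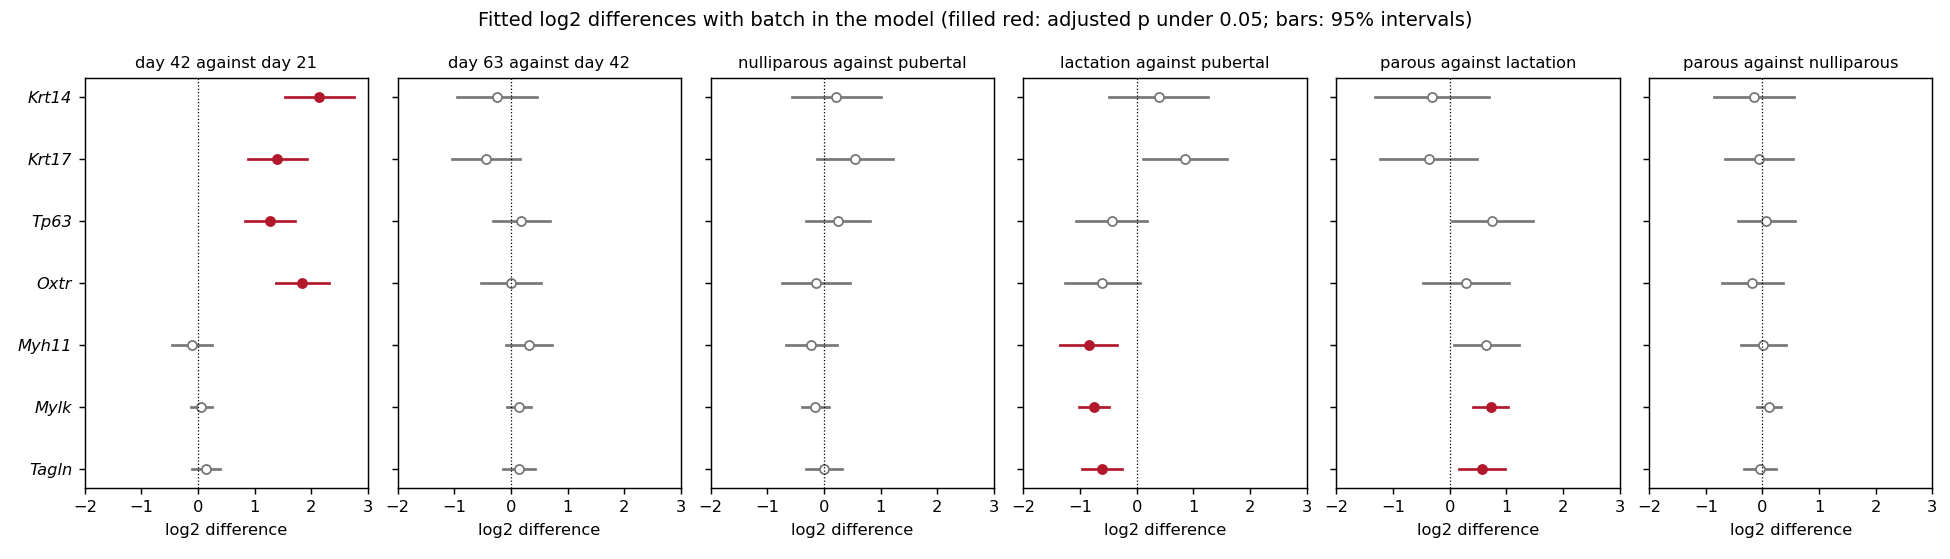
Fitted log2 differences of the 7 genes in 6 comparisons, with 95% intervals and a vertical line at 0. Filled red points passed an adjusted p of 0.05: Krt14, Krt17, Tp63 and Oxtr at day 42 against day 21, the 3 contractile genes in lactation against pubertal glands, and Mylk and Tagln in parous against lactation glands.

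Other genes of the same compartments were read from lists. Of 26 other basal epithelial genes, 14 rose and 1 fell between day 21 and day 42, with a median difference of 0.61, against 17.1% up and 15.2% down of all genes and a median of -0.00. Lgr6, a stem cell receptor of the basal layer, rose by 1.23 ± 0.17 (adjusted p = 4.38e-06), Egfr, the epidermal growth factor receptor, by 1.16 ± 0.15 (2.47e-06) and Nectin4, an epithelial adhesion gene, by 0.93 ± 0.15 (3.10e-05). Of 19 other smooth muscle contractile genes, 2 rose and 3 fell, with a median of 0.04. Itga8, an integrin chain of contractile cells, rose by 1.01 ± 0.18 (9.20e-05), and Tpm1, a tropomyosin, by 0.53 ± 0.13 (0.00232), while Fhl1, a LIM protein gene, fell by 0.52 (SE 0.16, 0.0131). Of 15 vascular smooth muscle and pericyte markers, none rose and 8 fell, with a median of -0.33. Among the 15 smooth muscle transcription regulators 3 rose and 4 fell. Foxo1, a forkhead factor gene, fell by 0.49 (SE 0.09, adjusted p = 8.01e-05) and Myocd, the co-activator of serum response factor, by 0.72 (SE 0.14, 0.000327), while Tead3, a TEAD factor gene, rose by 0.51 ± 0.10 (0.000451).

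Values of other cell types moved with these results. The mean of 20 luminal epithelial genes ran from 9.59 to 10.12 in peri-pubertal glands and from 6.86 to 9.56 in pre-pubertal glands, and 19 of the 20 rose, with a median of 1.56. The vascular list mean ran from 8.38 to 8.70 in peri-pubertal glands and from 8.66 to 9.21 in pre-pubertal glands. All 13 lymphocyte markers fell, by a median of 2.23, and 13 of 14 adipocyte markers fell. Once the luminal list mean entered the model as a covariate, none of the 7 members was called at day 42: the differences were 0.68 for Krt14 (adjusted p = 0.383), 0.28 for Krt17 (0.826), 0.29 for Tp63 (0.747) and 0.84 for Oxtr (0.113). Only 213 genes were called at all under that covariate, against 3552 without it. The part of other cell types in the day 42 values was not tested beyond these measurements.

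Among the 10 day 21 glands alone, Krt14 followed the luminal list mean with r = 0.954 (Spearman's rho = 0.964, adjusted permutation p = 0.00014 and 0.00084 over 14 relations). The r was 0.901 without the 2 arrays farthest from the median and 0.994 within the 6 arrays of batch 1. Tp63 gave r = 0.898 and rho = 0.915 (adjusted permutation p = 0.00203 and 0.00413), 0.789 without the 2 farthest arrays and 0.945 in batch 1. Oxtr gave r = 0.816 and rho = 0.782 (adjusted permutation p = 0.0139 and 0.0351), 0.624 without those arrays and 0.873 in batch 1. Krt17 gave r = 0.778 and rho = 0.770 (adjusted permutation p = 0.0239 and 0.0351), 0.728 and 0.899. The day 21 glands with high Krt14 were thus those with high luminal genes. Values were permuted over all 10 arrays without regard to batch, so batch differences enter these p-values and those of the relations below.

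Myh11 (r = 0.059), Mylk (0.392) and Tagln (0.232) had no relation to the luminal list at day 21 that passed (adjusted permutation p from 0.338 to 0.863 for r). These coefficients moved with the arrays used. Without the 2 farthest arrays r was 0.053 for Myh11, 0.666 for Mylk and 0.597 for Tagln, and within batch 1 it was -0.246, 0.609 and -0.432. Tagln followed the 19 other contractile genes instead (r = 0.816, rho = 0.806, adjusted permutation p = 0.0158 and 0.0322), with 0.891 without the 2 farthest arrays and 0.528 in batch 1. For Mylk and Krt17 the relation to the contractile list passed for r only (0.768 and 0.729), and without the 2 farthest arrays r was 0.472 and 0.337. Batch 2 held 4 day 21 arrays, too few for a value of its own.

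**Figure D3:**
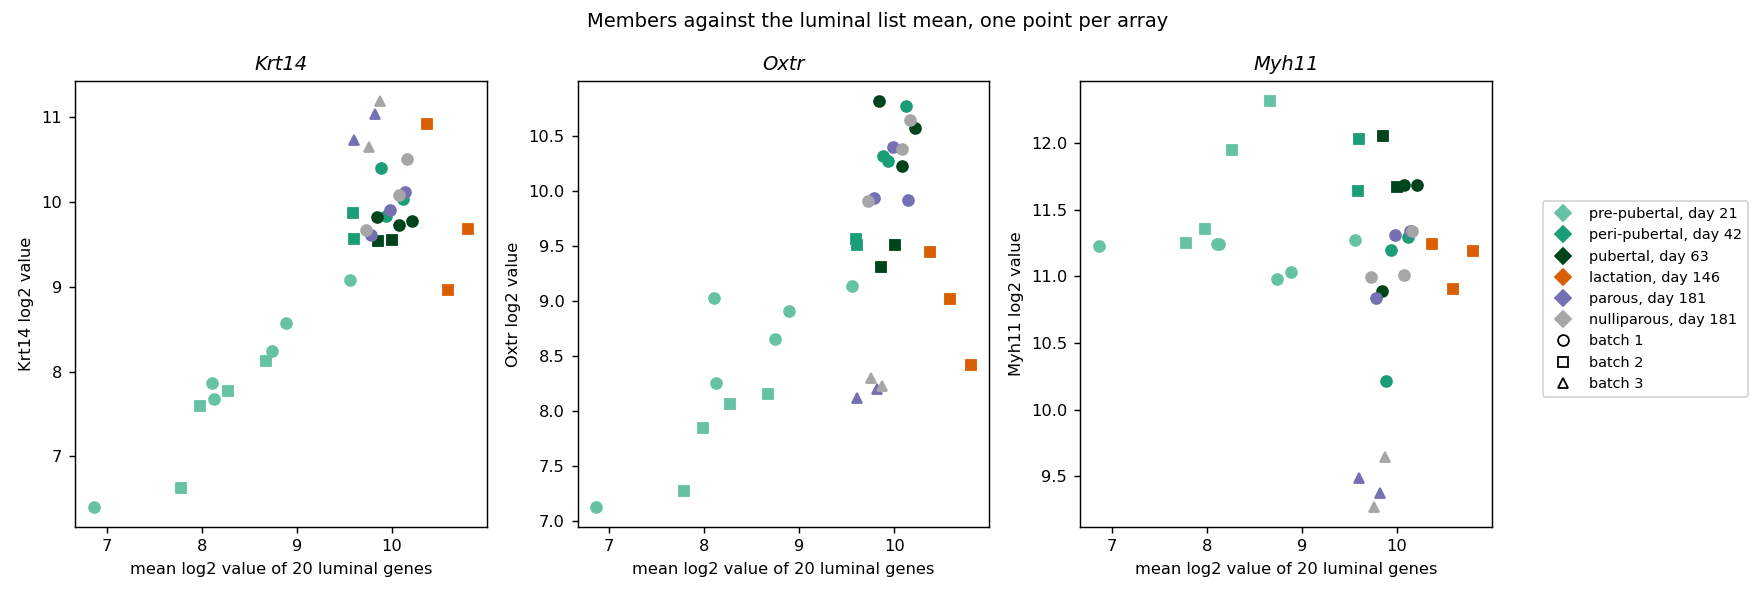
The log2 value of Krt14, Oxtr and Myh11 against the mean of 20 luminal epithelial genes, 1 point per array, coloured by stage and shaped by batch. Krt14 and Oxtr climb with the luminal mean among the day 21 glands, Myh11 does not, and the lactation glands have the highest luminal means with Oxtr between 8.42 and 9.44.

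Over all 33 arrays, with batch terms subtracted, the 7 genes fell into the same 2 sets. Pearson's r was 0.777 to 0.915 among Krt14, Krt17, Tp63 and Oxtr, 0.760 to 0.819 among Myh11, Mylk and Tagln, and -0.054 to 0.442 between the sets. These coefficients are descriptions, since the arrays come from separate stages that themselves differ. Oxtr, although it acts in contraction, varied with the keratins (0.915 with Krt14) more than with the contractile genes. Its r was 0.068 with Myh11, 0.223 with Mylk and 0.333 with Tagln.

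No further difference was called in virgin glands from day 42 on. Krt14 averaged 9.68 ± 0.13 in pubertal glands and 9.94 ± 0.30 in peri-pubertal glands, and Oxtr 10.08 ± 0.66 and 10.09 ± 0.54 (SD, n = 5 each). For day 63 against day 42, 0 of the 7 members were called, where 1.22% of all genes were. At an unadjusted p under 0.05 the count was also 0, against 14.8% of all genes (limma). The differences ran from -0.44 ± 0.29 for Krt17 to 0.32 ± 0.20 for Myh11, and the interval for Krt14 was -0.96 to 0.45, so a smaller change would not have been detectable.

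Adult nulliparous glands at day 181 were set against pubertal glands, and again 0 of 7 members were called, where 4.27% of all genes were. The unadjusted count was 0 as well, against 17.8% of all genes. Krt17 had the largest difference, 0.55 ± 0.33 (adjusted p = 0.409), and Tagln the smallest, -0.00 ± 0.15. Of the other lists, Il17b, a cytokine gene of basal cells, fell by 1.17 (adjusted p = 0.0469), and 1 vascular marker, the channel subunit gene Abcc9, fell by 0.52 (0.0148). No other basal, contractile or vascular list gene was called.

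At the end of lactation the contractile members fell, and neither keratin was called. Mylk was at 8.88, 8.46 and 8.63 in lactation glands, against 9.33, 9.88, 9.83, 9.62 and 9.19 in pubertal glands. All 3 lactation arrays were below all 5 pubertal arrays, and Mylk fell by 0.75 (SE 0.13, adjusted p = 3.08e-05). Myh11 was at 11.25, 11.19 and 10.91 in lactation glands, against 10.89, 11.68, 11.68, 12.06 and 11.67 in pubertal glands. Pubertal array 1 lay below all the lactation arrays, the other pubertal arrays above them, and Myh11 fell by 0.85 (SE 0.24, adjusted p = 0.00598).

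Tagln was at 11.10, 11.55 and 11.23 in lactation glands, against 11.53, 12.07, 12.09, 12.08 and 11.76 in pubertal glands. Only pubertal array 1 reached into the lactation range, and Tagln fell by 0.61 (SE 0.17, adjusted p = 0.0052). The 3 contractile members thus fell, where 16.9% of all genes tested did. Mylk had non-overlapping lower arrays, as did 17.4% of all genes. Lactation and pubertal glands share batch 2 alone, with 3 and 2 arrays, and within it Mylk (-0.75) and Tagln (-0.62) were called while Myh11 (-0.75, adjusted p = 0.0805) was not. Without a batch term only Tagln was called, at -0.61.

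Krt14 was at 10.91, 9.68 and 8.96 in lactation glands, against 9.82, 9.78, 9.73, 9.53 and 9.55 in pubertal glands, so the lactation arrays spread on both sides of the pubertal ones. Its difference was 0.39 ± 0.42 (adjusted p = 0.487), and -0.14 without lactation array 1. That array was the highest of the 3 in Krt14, Tp63, Oxtr, Mylk and Myh11, but not in Krt17 or Tagln. It also had Dsg1 at 10.08 and Dsg3 at 8.14, desmoglein genes read here from the list of skin and hair markers. Both were below the floor of 7.645 on every other array. Of other markers on that list, Sprr1a was at 7.78 on lactation array 1 and at 7.675 on pre-pubertal array 2. Krt1, Krt10, Krt2, Loricrin, Ivl and Flg were below the floor on all arrays. The part of skin RNA in the keratin and Tp63 values of lactation array 1 was not tested beyond this. Krt17 differed by 0.84 ± 0.36 (adjusted p = 0.0615), and by 1.27 without lactation array 3, where it was called (0.0101). That array was the lactation array with the highest skeletal muscle list mean, 9.69 against 6.56 and 8.38.

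Tp63 differed by -0.44 ± 0.30 (adjusted p = 0.257) and Oxtr by -0.61 ± 0.32 (0.131), neither of which passed. Oxtr was at 9.44, 8.42 and 9.02 in lactation glands, against 10.81, 10.57, 10.23, 9.31 and 9.50 in pubertal glands, with the 2 lowest pubertal values from batch 2. The luminal list mean ran from 10.37 to 10.80 in lactation glands and from 9.84 to 10.21 in pubertal glands. With that mean in the model, Tp63 (-0.91, adjusted p = 0.00311) and Oxtr (-1.09, 0.0016) were called too. The lactation means lay above those of every other group, so the adjustment reaches beyond the range of the other glands. The luminal list also changed in this comparison, with 9 of 20 genes up and 2 down. These 2 calls therefore depend on the list and on the fitted slope. Tp63 was also called without lactation array 1 (-0.80, 0.0448).

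Other basal epithelial genes fell in lactation more often than they rose. Of 26, 11 fell and 1 rose, with a median of -0.43, against 16.9% down and 23.8% up of all genes and a median of 0.06. Mme, the membrane protease CD10 of myoepithelial cells, fell by 1.86 (SE 0.20, adjusted p = 3.96e-08). Lama3, a laminin chain of the basement membrane, fell by 1.30 (SE 0.22, 2.99e-05) and Il17b by 1.98 (SE 0.38, 0.000139), and in all 3 the lactation arrays lay below every pubertal array.

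Of 19 other contractile genes, 8 fell and 2 rose, where 16.9% of all genes tested fell and 23.8% rose. Fhl1 fell by 1.63 (SE 0.23), Flna, filamin A, by 0.91 (SE 0.15) and Myl9, the regulatory myosin light chain that Mylk acts on, by 0.90 (SE 0.19, adjusted p = 0.000336). Of 15 vascular smooth muscle and pericyte markers, 9 fell and none rose, with a median of -0.62, among them Mcam (-1.33 ± 0.17), Cspg4 (-0.99 ± 0.18) and Notch3 (-0.85 ± 0.13). The vascular list mean ran from 7.74 to 8.02 in lactation glands and from 8.25 to 8.44 in pubertal glands. The part of vessels in the fall of Myh11, Mylk and Tagln was not tested.

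Genes between the oxytocin receptor and contraction moved in both directions. Of 28 genes of that path, 5 rose and 7 fell in lactation, where 23.8% of all genes tested rose and 16.9% fell. These counts lie near those shares. Orai1, the plasma membrane calcium channel of store-operated entry, rose by 1.48 ± 0.18 (adjusted p = 2.74e-07), while Stim1, its sensor in the endoplasmic reticulum, fell by 0.90 (SE 0.12, 1.66e-06). Itpr3, a calcium release channel, rose by 0.60 ± 0.12 (0.000162). On the list of 15 smooth muscle transcription regulators, which also holds the ligand gene Tgfb2, 5 rose and 3 fell, against the same shares. Tgfb2 rose by 1.88 ± 0.22 (1.60e-07), Tead1 by 0.81 ± 0.18 (0.000943), and Prrx1 fell by 1.51 (SE 0.13, 5.28e-10). These genes are also used by luminal and stromal cells. The luminal and adipocyte list means moved in the same comparison, and no fibroblast list was read.

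After weaning, Mylk and Tagln rose again. Mylk was at 9.72, 9.78, 9.42, 7.83 and 7.92 in parous glands, with the last 2 from batch 3, against 8.88, 8.46 and 8.63 in lactation glands. With the batch term it rose by 0.72 ± 0.15 (adjusted p = 0.000418). Tagln was at 11.98, 11.98, 11.61, 12.45 and 12.44 in parous glands, against 11.10, 11.55 and 11.23 in lactation glands, and rose by 0.57 ± 0.20 (adjusted p = 0.0256) with no overlap. Parous and lactation glands share no batch, so these values rest on the batch terms fitted from other stages. Without a batch term Mylk was at 0.28 (0.626).

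The 2 of 7 members that rose in parous glands compare with 12.1% of all genes tested, and the 1 with non-overlapping higher arrays with 13.3%. Tp63 (0.75 ± 0.35, adjusted p = 0.0946) and Myh11 (0.65 ± 0.28, 0.0717) did not pass, nor did Oxtr (0.29 ± 0.37), Krt14 (-0.31 ± 0.49) or Krt17 (-0.37 ± 0.41). The call for Tagln was lost without lactation array 1 (0.0896), lactation array 3 (0.0656), parous array 1 (0.0592) or parous array 2 (0.0529). Tp63 was called without lactation array 1, at 1.11 (0.0161). In the same comparison 12.1% of all genes rose and 20.7% fell. Of the other contractile genes 8 of 19 rose and 2 fell, including Fhl1 (1.60 ± 0.26), Myl9 (1.03 ± 0.21) and Flna (1.00 ± 0.18), and of the vascular markers 5 of 15 rose. Of the other basal genes 5 of 26 rose and 1 fell, with Mme up by 1.55 ± 0.23 and Jag1, a Notch ligand, up by 0.68 ± 0.17. The laminin receptor chain Itga6 fell by 0.54 (SE 0.12).

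No member was called between parous and nulliparous glands of the same age. Of the 7 members 0 were called, where 0.0182% of all genes were, and 0 passed an unadjusted p under 0.05, against 6.08% of all genes (limma). Krt14 averaged 10.27 ± 0.59 in parous glands and 10.42 ± 0.57 in nulliparous glands (SD, n = 5 each), a difference of -0.14 with an interval from -0.85 to 0.56. For Mylk the interval was -0.09 to 0.33 and for Oxtr -0.71 to 0.36. Within batch 1 the differences ran from -0.23 (Oxtr) to 0.11 (Mylk), and within batch 3 from -0.11 (Oxtr) to 0.13 (Mylk).

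When the stages were ordered by their fitted means, most neighbours could not be told apart. Pre-pubertal glands were lowest for Krt14, Krt17, Tp63 and Oxtr, and the step to the next stage was the only one called: 1.89 ± 0.30 to pubertal glands for Krt14, 0.96 ± 0.25 to pubertal glands for Krt17, 1.01 ± 0.28 to lactation glands for Tp63 and 1.23 ± 0.29 to lactation glands for Oxtr. Of all genes, 19.2% were called higher in pubertal than in pre-pubertal glands, and 31.5% were called higher and 24.5% lower in lactation than in pre-pubertal glands. Lactation glands were lowest for the 3 contractile genes. For Mylk the step up to pre-pubertal glands was called (0.56 ± 0.12, adjusted p = 0.000196), whereas for Myh11 and Tagln no neighbouring stages differed at the threshold. Lactation glands stood second lowest for Oxtr and Tp63 but highest for Krt14 and Krt17, where the step below them was not called (0.14 ± 0.42 and 0.30 ± 0.41). The place of Krt14 rests on lactation array 1: without it lactation glands differed from pubertal glands by -0.14.

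Batch 3 stood apart for most members. Against batch 1, Oxtr differed by -1.99 ± 0.27, Mylk by -1.77 ± 0.11, Myh11 by -1.69 ± 0.20 and Tp63 by -1.32 ± 0.25, while Krt14 (0.91 ± 0.35) and Tagln (0.57 ± 0.14) were higher. These 6 were called and Krt17 (-0.58 ± 0.30) was not, where 77.4% of all genes were called. Median absolute differences over all genes were 0.75 for batch 3 and 0.27 for batch 2. Against batch 1, batch 2 was lower for Krt17 (-0.95 ± 0.21), Oxtr (-0.85 ± 0.19) and Mylk (-0.26 ± 0.07) and higher for Myh11 (0.62 ± 0.14), 4 of 7 called, where 56.6% of all genes were.

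The batch terms ran in both directions. In nulliparous glands Mylk was at 7.72 and 7.77 in batch 3, against 9.68, 9.49 and 9.42 in batch 1, and Tagln at 12.56 and 12.36 in batch 3, against 12.20, 11.86 and 11.66 in batch 1. Batch 3 and its extraction kit are the same arrays, and the labels state that this kit was used for some of the fattier adult glands. Batch, kit and that choice of glands cannot be told apart.

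**Figure D4:**
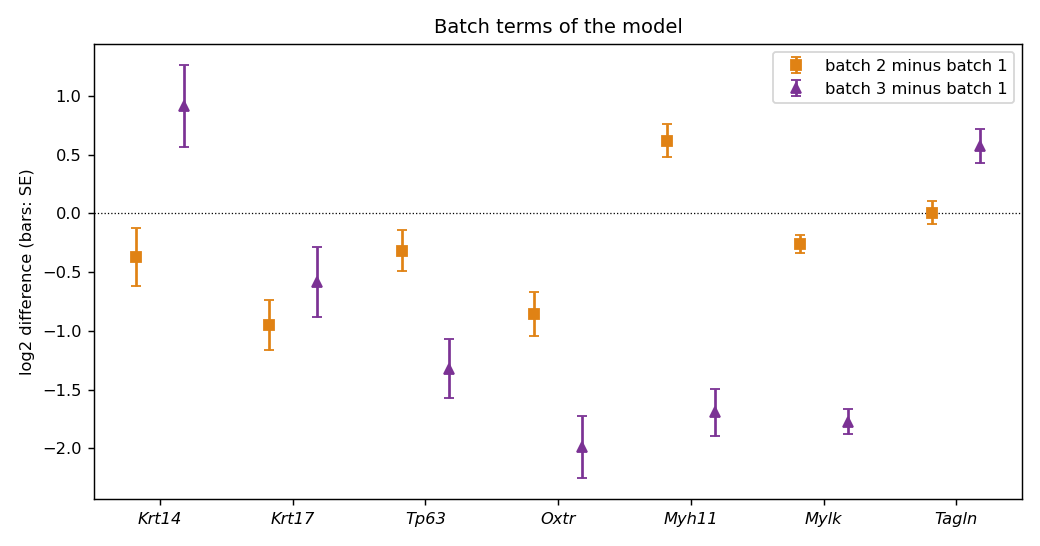
Fitted difference of batch 2 (squares) and batch 3 (triangles) from batch 1 for each gene, in log2 units with SE bars. Batch 3 is lower for Oxtr, Mylk, Myh11 and Tp63 and higher for Krt14 and Tagln.

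Markers of neighbouring tissues were read beside the members. Of 15 measured markers of skin and hair, 8 were above the floor on no array, Krt1, Krt10, Krt2, Loricrin, Ivl and Flg among them, and 5 on a single array, and the list mean ran from 5.84 to 6.48 over all arrays. Sprr1b, a cornified envelope gene, was above the floor on 20 arrays and was the only one of the 15 tested. It fell by 0.40 (SE 0.12, adjusted p = 0.012) in lactation against pubertal glands and rose by 0.51 ± 0.14 (0.00764) in parous against lactation glands. Arrays did not overlap in either, and Mylk and Tagln shared these directions. Overlap was read without batch terms, and parous and lactation glands share no batch. Sprr1b values ran only from 6.91 to 7.99, close to the floor. The part of this gene in those results was not tested. The hair keratins Krt73 (8.93) and Krt27 (7.81) were above the floor only in pre-pubertal array 2, the array with the lowest Krt14 value. Skeletal muscle markers averaged above 9 on 5 arrays (1 pre-pubertal, 2 peri-pubertal, 1 lactation and 1 nulliparous). Without those 5 arrays the calls in the 6 comparisons were unchanged except that Krt17 was gained in lactation against pubertal glands (1.23, adjusted p = 0.0202) and Tagln lost in parous against lactation glands (0.56, 0.0745). The F test then called 5 members in place of 6.

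The genes most like each set over the 33 arrays, after batch terms were subtracted, were found by Pearson's r, as a description. For the mean of Krt14, Krt17 and Tp63 they were Tfap2a (0.967) and Tfap2c (0.947), which encode AP-2 transcription factors, Fxyd3 (0.954), Esrp2 (0.950), an epithelial splicing regulator, Tns4 (0.949), Irx2 (0.948), Camsap3 (0.948) and Tmc4 (0.939). For Oxtr they were Duox1 (0.936), Trps1 (0.936), Tns4 (0.933), Irx1 (0.926), Tfap2a (0.925), Scnn1g (0.923), Tnfrsf21 (0.922) and Robo2 (0.922). For the contractile set r was lower: Mir143 (0.850), Mir145 (0.805), Reln (0.793), Niban1 (0.788), Myl9 (0.752), Actg2 (0.743), Osbpl6 (0.739) and Rplp1l2 (0.738).

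Mir143 and Mir145, which headed the contractile list, encode microRNAs known for their place in smooth muscle cells. Their mature sequences are shown with the seed, bases 2 to 8, in capitals (RefSeq, GRCr8).
rno-miR-143-3p (chr18:57371373-57371394, minus strand): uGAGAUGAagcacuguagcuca
rno-miR-145-5p (chr18:57370033-57370055, minus strand): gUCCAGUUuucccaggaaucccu
The seeds differ, and the hairpins lie 1278 bases apart on 1 strand. Mir143 was at 8.81, 7.98 and 8.20 in lactation glands, against 8.86, 9.58, 9.22, 10.04 and 9.60 in pubertal glands, a difference of -1.64 ± 0.32 with no overlap. Mir145 was at 7.80, 6.89 and 7.03 in lactation glands, against 7.96, 8.96, 8.90, 8.43 and 7.99 in pubertal glands, a difference of -1.25 ± 0.38, also with no overlap. In parous against lactation glands Mir143 differed by 1.30 ± 0.37 and Mir145 by 0.60 ± 0.43. Both were chosen for following the contractile genes on these same arrays, so the differences are given with no test. The array's probe sets for these genes need not read the mature form, which was not tested.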

How the data were processed

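Total RNA of 33 rat mammary gland samples was hybridised to Affymetrix whole-transcript arrays. The authors deposited log2 values for 36685 probe sets. Per the submitters' processing notes these came from RMA, the robust multi-array average, run in Affymetrix Expression Console. Versions and genome build: not given in the sources used here. RMA shares 1 distribution across arrays, so a change is relative to the other genes of a gland. Values ran from 2.405 to 14.228, and the number of arrays limits the precision. In the platform annotation 18511 probe sets had 1 gene symbol, 575 several and 17599 none listed. Only the first were used, and of several probe sets of a gene the one of highest mean was kept (291 genes). Genes above 7.645 in at least 3 arrays were tested (10986). Groups, batch and kit came from the labels.

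One model per gene with 6 stages and 3 batches was fitted with limma 3.58.1 in R 4.3.3 (moderated variances with an intensity trend, two-sided), and checked on simulated data. Permutation tests used scipy 1.17.1 and Python 3.11.15, with 100000 resamples for correlations. Figures used matplotlib 3.10.9. Replicates are separate samples per the labels. The members, gene lists and tests were chosen with earlier results of these data known, so none of them is independent support. Genes outside the members were named by rule: from each list, in each comparison, up to 3 called genes of smallest adjusted p, and the 8 genes of highest r with each of 3 profiles. Desmoglein and hair keratin genes were named after their values were seen. Lists covered other basal epithelial genes, other smooth muscle contractile genes, vascular smooth muscle and pericyte, oxytocin receptor signalling, smooth muscle transcription regulators, luminal, skin and hair, skeletal muscle, adipocyte, lymphocyte, endothelial and milk protein genes.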

Additional observations from a re-analysis of the deposited data

Results flagged for a closer look

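Of 35 sets of 4 to 10 arrays (7 genes in 5 groups), 1 held an array far from the rest. Tagln in peri-pubertal array 2 was at 11.173, with the nearest of the other 4 arrays at 11.854, a gap of 0.857 of the group's whole range. Chance alone puts about 1 in 20 such sets past this limit. The same array was the lowest of its group in Myh11, at 10.22. Without it, Tagln was called at day 42 against day 21 (0.30, adjusted p = 0.0401).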

How the results depend on the processing

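No paired analysis was possible because the labels give no replicate numbers that groups share. Of 1016 values of single genes under other settings, 988 kept their direction or had no call to lose, 15 lost a call, 13 gained one and 0 called values changed sign; 62 uncalled values changed sign. Counts of called members were 0 under every setting run for day 63 against day 42, nulliparous against pubertal and parous against nulliparous glands. At day 42 against day 21 the count was 4, with 0 under the luminal covariate, 3 in batch 2 alone, 3 at the 75th percentile filter (9.066), where Tp63 was not tested, and 4 to 5 with an array left out. In lactation against pubertal glands it was 3, with 1 without a batch term, 2 in batch 2 alone, 5 under the luminal covariate, 4 under the skeletal muscle or lymphocyte covariate, 4 without the 5 arrays of high skeletal muscle content (an alternative chosen after seeing the data) and 3 to 4 with an array left out. In parous against lactation glands it was 2, with 1 without a batch term, 4 under the luminal covariate, 1 under the skeletal muscle covariate, 4 under the lymphocyte covariate, 1 without those 5 arrays and 1 to 2 with an array left out. These 2 groups share no batch, so the fit of them alone with batch could not be made. The F test called 6 members, with 4 under the luminal covariate, 7 under the lymphocyte covariate, 5 at the 75th percentile filter, 5 without those 5 arrays and 5 to 7 with an array left out. Of 10986 genes tested it called 7239, with 4914 under the luminal and 6920 under the lymphocyte covariate. It called 6186 without those 5 arrays, and 4919 of 7047 at the 75th percentile filter. Calls over all genes moved with the setting too, so the member counts are not results about the members alone. The causes were not tested. Lactation has 3 arrays, all in batch 2, which limits its comparisons most.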

Other observations

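The other marker lists moved as follows in comparisons where the basal and contractile genes were read. At day 42 against day 21, 6 of 7 milk protein genes rose, with a median of 1.37, 6 of 9 endothelial markers fell, and 0 of 12 skeletal muscle markers were called. Of all genes tested, 17.1% rose and 15.2% fell there. In lactation against pubertal glands 9 of 20 luminal genes rose and 2 fell, with Krt7 up by 2.68 ± 0.41 (adjusted p = 8.35e-06), Prom1 down (-1.86 ± 0.33, 6.55e-05) and Foxa1 down (-1.75 ± 0.33, 0.000103), and 11 of 14 adipocyte markers fell. The shares of all genes in that comparison were 23.8% up and 16.9% down. In parous against lactation glands 10 of 20 luminal genes fell and 10 of 14 adipocyte markers rose, where 20.7% of all genes fell and 12.1% rose. In the oxytocin path at day 42 against day 21, 4 of 28 genes rose and 9 fell, where 17.1% of all genes rose and 15.2% fell. The genes of smallest adjusted p were among the 9: Grk5, a receptor kinase (-0.55 ± 0.08), and Prkca, protein kinase C alpha (-0.60 ± 0.10).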
